A study of Mus musculus with 32 samples.

Results

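Mouse embryonic stem cells (ESCs) lacking *Etv5* and *Rbpj* (ER-dKO) that had been kept for 5 passages in CHIRON, a GSK3 inhibitor, without MEK inhibitor were compared with RGd2 cells, the line they were made from, kept for 5 passages in 2i. The comparison was chosen by the sample labels and takes in 6 of the 32 RNA-seq libraries of the series, 3 ER-dKO libraries (10, 11 and 12) and 3 RGd2 libraries (1, 2 and 3). RGd2 carries a short-lived GFP reporter at the *Rex1* locus, as do all mutants made from it, and 2i is the combination of CHIRON with the MEK inhibitor PD0325901 in the serum-free medium N2B27. Each ER-dKO library is a different clone, (Ec1)Rc43, ERc7 and ERc9 in that order, whereas RGd2 libraries 1 and 2 are cultures of the parental population and library 3 is a clonal line derived from it. Genotype and medium change together between these groups, so that the loss of the genes and the loss of MEK inhibition cannot be told apart within this comparison. For that reason values are also given from RGd2 after 2 passages in CHIRON alone (CHp2), from *Etv5*-KO and *Rbpj*-KO clones and RGd2 in 2i, from RGd2 at 16 h after release from 2i into N2B27 (N16h), and from triple mutants that also lack *Tcf3* after 5 passages in N2B27 (ETR-tKO Np5), each with 3 libraries. These other mutants are 3 clones per genotype, but the clone names show shared origins. ETR-tKO libraries 14 and 15 both carry the prefix (Tc1), and the prefix of ER-dKO library 10, (Ec1), may refer to *Etv5*-KO clone c1, which is library 27 of the *Etv5*-KO group in 2i. The study's methods describe lines routinely kept in CHIRON with leukaemia inhibitory factor (LIF), then moved to both inhibitors shortly before assay. The single mutants, RGd2 in 2i and N16h may therefore have had recent LIF without MEK inhibitor. How far this separates their values from those of the cultures kept for 5 passages was not tested. For N16h the labels give 3 libraries and were followed, although the study's methods describe fewer for that condition.

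ESCs in 2i are naive: they express transcription factors of the pre-implantation epiblast, such as NANOG, ESRRB, KLF4 and TFCP2L1, while MEK/ERK signalling downstream of fibroblast growth factor is blocked. When the MEK inhibitor is withdrawn, ERK signalling induces its own feedback inhibitors of the Sprouty, Spred and Dusp families. Among the ETS factors of the PEA3 group (ETV1, ETV4 and ETV5), *Etv4* is induced with them. *Etv5* is already transcribed in naive ESCs. The paper reports that this is a shorter isoform and that the full-length isoform appears after withdrawal. It describes *Etv1* expression as negligible in ESCs. Wild-type cells then pass to a formative state marked by OTX2, POU3F1 and FGF5. RBPJ is the DNA-binding factor through which Notch receptors act. Without Notch it recruits co-repressors, so that its loss can raise the transcription of its target genes as well as lower it.

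The alleles were made with a pair of Cas9 guides per gene, which are shown because the position of the cuts sets what remaining counts of *Etv5* and *Rbpj* can mean. The guides are written 5′ to 3′ in lower case and the adjacent PAM in capitals.
Rbpj exon 5: tgacctttatccgcttgctgAGG
Rbpj exon 7: gcttgacagtctgcccgtaaTGG
Etv5 exon 8: cgcagctccgccaccccttcAGG
Etv5 exon 9: gaaatacccgcctctcatgtAGG
On GRCm38/mm10 the *Rbpj* guides lie at chr5:53645980-53645999 and chr5:53649718-53649737, both antisense to the gene and in coding parts of exons 5 and 7 of transcript *Rbpj*-201. The *Etv5* guides lie at chr16:22401804-22401823 (sense) and chr16:22399336-22399355 (antisense), in coding parts of exons 8 and 9 of transcript *Etv5*-201. From the first to the last guide base the span is 3758 bases in *Rbpj* and 2488 bases in *Etv5*. The deposited counts cover whole genes, so transcripts made of the exons outside these spans are still counted.

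ER-dKO libraries had between 34208077 and 71439411 counts on genes and RGd2 2ip5 libraries between 9255795 and 22213048, so that low levels were measured more precisely in the mutants. The spike-in RNAs took 1.23% ± 0.04 (SD, n = 3) of the counts in ER-dKO and 1.47% ± 0.06 (SD, n = 3) in RGd2 2ip5. Mitochondrial ribosomal RNA took 15% to 15.6% in ER-dKO and 12.2% to 13.8% in RGd2 2ip5. ER-dKO libraries lay 18.0 to 20.3 apart by Euclidean distance of rlog values, a variance-stabilized log2 scale. All 3 were nearer to RGd2 2ip5 (median distance 56.3) than to any other RGd2 group, with median distances of 67.3 to RGd2 2i, 76.2 to N16h and 85.2 to CHp2. By median they were nearer still to the *Rbpj*-KO clones in 2i (52.4, range 48.64 to 54.15) and the ETR-tKO clones (49.8, range 48.18 to 55.3). Both ranges overlapped that to RGd2 2ip5, 53.29 to 59.42. Of the RGd2 2ip5 libraries, library 3 lacked Y chromosome transcripts, and of the ER-dKO libraries, library 12 had *Rbpj* counts that go against its label. Both are described with the genes they touch. Markers of the labelled cell type were present in all 6 libraries, with *Pou5f1* at 378 and 370 FPKM and *Nanog* at 333 and 328 FPKM in ER-dKO and RGd2 2ip5, whereas the 9 primitive endoderm markers tested all stayed under 1 FPKM and summed to at most 1.23 FPKM in ER-dKO and 1.06 FPKM in RGd2 2ip5. The 6 of 10 fibroblast markers that could be tested were under 1 FPKM as well, and none of these 15 genes was called.

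Counts were scaled by the spike-ins, and a gene was called when edgeR's quasi-likelihood test gave a Benjamini-Hochberg adjusted p under 0.05 and its mean FPKM was at least 1 in either group. Of 18892 genes tested, 3922 (20.8%) were higher in ER-dKO and 975 (5.16%) were lower. Only 11562 of the genes tested reached 1 FPKM in either group and could be called. Among such genes, 26.9% to 39.5% were called higher and 5.43% to 12.1% lower, depending on the autosome. For lists of expressed genes these are the nearer shares for comparison. A list whose counts lie near these shares is not set apart from other expressed genes. Scaling by the genes themselves (TMM) gave 2526 higher (13.4%) and 2368 lower (12.5%). The 2526 genes called higher with TMM were all among the 3922, the 975 called lower with spike-ins were all among the 2368, and no gene was called in opposite directions. TMM shifts the median log2 fold change of all genes from 0.20 to 0.00, a shift of -0.20, and the share of called genes that were higher from 80.1% to 51.6%. In bulk RNA, a change in the number of cells that express a gene and a change in RNA per cell cannot be told apart. Fold changes below are on the spike-in scale, and a call that TMM removes is named as such. The 2 groups of libraries did not overlap for 52.25% of all genes tested and for 4847 of the 4897 called genes. Lack of overlap is therefore common to nearly all called genes. At a fold change of at least 2, 713 genes were higher and 392 were lower. Changes of this size were thus distributed less unevenly between the directions than all calls were.

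**Figure D1:**
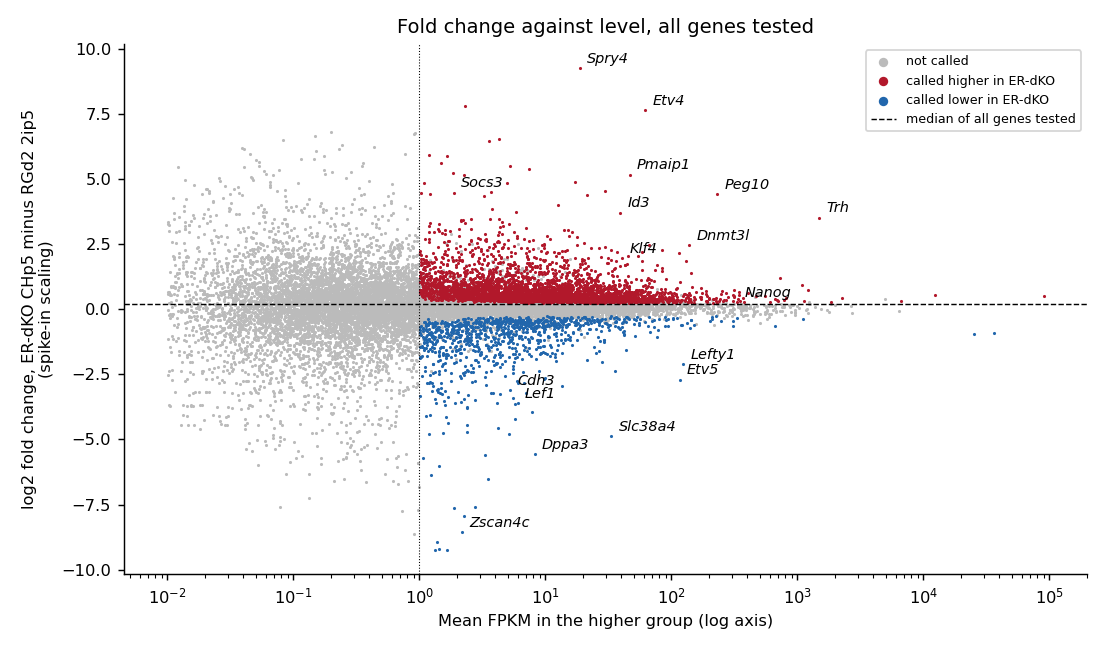
Each point is a gene tested, with the mean FPKM in the higher group on the x axis (log scale) and the log2 fold change of ER-dKO over RGd2 2ip5 on the y axis, and coloured points are called higher (3922) or lower (975). The dashed line is the median of all genes, 0.20, the dotted line is the minimum of 1 FPKM, and *Spry4* and *Etv4* stand out at the top.

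*Etv5* (ENSMUSG00000013089.15, chromosome 16, 22381309 to 22439719, minus strand) was low in every ER-dKO library. Its normalized counts, which are counts divided by the spike-in size factor, were 1954, 1397 and 1684 in ER-dKO libraries 10, 11 and 12 and 10670, 11870 and 10340 in RGd2 libraries 1, 2 and 3. The groups did not overlap and the difference on the log2 scale was -2.71 (SE 0.16, edgeR quasi-likelihood p of 5.01e-17 after Benjamini-Hochberg adjustment). *Rbpj* (ENSMUSG00000039191.12, chromosome 5, 53466152 to 53657362) had counts of 1138, 1307 and 3489 in ER-dKO and 2830, 3385 and 2853 in RGd2 2ip5. The library labelled ER-dKO 12 therefore held more *Rbpj* counts than any RGd2 2ip5 library, and the groups overlapped. Over all libraries *Rbpj* differed by -0.62 (SE 0.21, adjusted p = 0.0176, edgeR), and without library 12 by -1.31 (adjusted p = 1.31e-09, edgeR). The call was lost with DESeq2 (adjusted p = 0.0586) and without RGd2 library 2, ER-dKO library 10 or ER-dKO library 11 (-0.53, -0.34 and -0.39). Reads per exon were not analysed here, so whether the counts of library 12 come from a transcript that still encodes RBPJ was not tested.

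**Figure D2:**
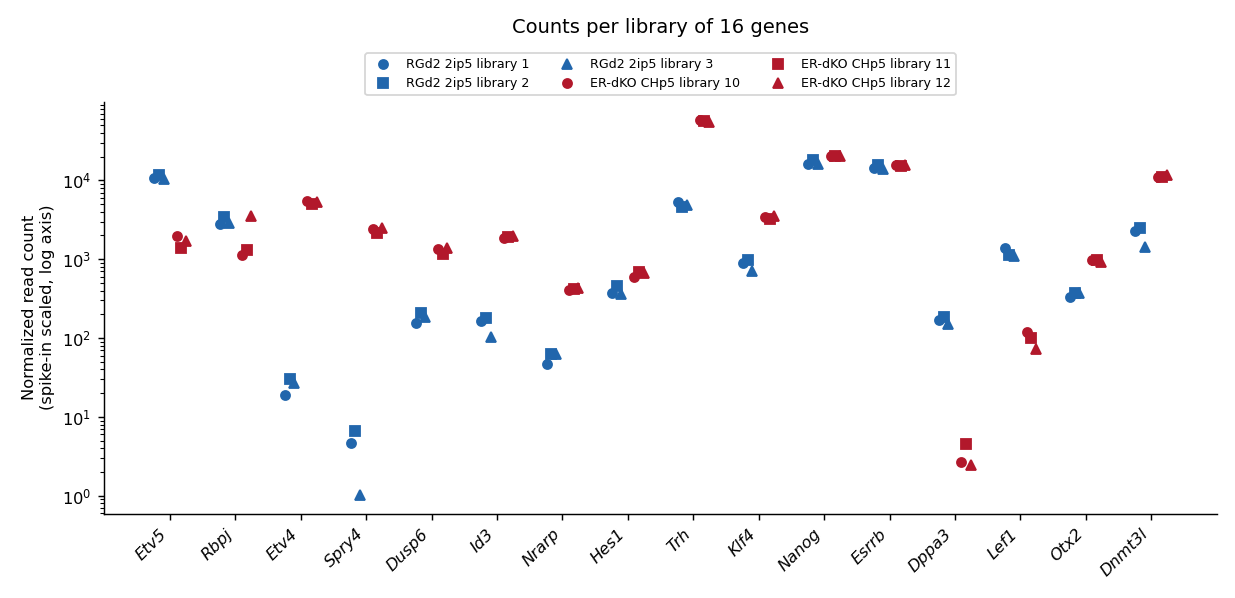
Normalized counts (log axis) of 16 genes in each RGd2 2ip5 (blue) and ER-dKO (red) library, with a marker shape per library. *Rbpj* is the only gene shown whose groups overlap through library 12, at 3489 against 1138 and 1307 in the other ER-dKO libraries, and *Esrrb* overlaps through all of them.

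The relatives of *Etv5* in the PEA3 group moved the other way. *Etv4* counts were 5495, 4963 and 5275 in ER-dKO and 18.9, 30.2 and 26.7 in RGd2 2ip5. The difference was 7.63 on the log2 scale (SE 0.18, adjusted p = 4.49e-30, edgeR), the smallest p of all genes. *Etv1* rose as well, from 146, 191 and 148 to 1147, 1167 and 1300 (2.89). On the per-length scale, *Etv4* went from 0.35 to 61.9 FPKM while *Etv5* went from 117 to 15 FPKM, so that *Etv4* was the more abundant PEA3 transcript in ER-dKO. Against RGd2 in CHIRON for 2 passages, which also lacked MEK inhibitor, *Etv4* and *Etv1* were still higher in ER-dKO, by 1.98 and 1.51. That contrast shares the ER-dKO libraries with the main comparison, and its values are set beside it without being independent of it.

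Of 25 feedback and target genes of ERK signalling, 24 were tested, 12 rose and 1 fell. The median log2 fold change of the list was 0.80, beside 0.20 for all genes tested, and 9 of the 24 were under the FPKM minimum in both groups. *Spry4*, a Sprouty inhibitor of receptor tyrosine kinase signalling, was almost absent in 2i, with 4.71, 6.57 and 1.03 normalized counts against 2385, 2148 and 2508 in ER-dKO (9.26, adjusted p = 1.96e-28, edgeR). *Dusp6*, which dephosphorylates ERK, went from 156, 208 and 183 to 1355, 1176 and 1390 (2.82). Its relative *Dusp4* went from 266, 210 and 314 to 1581, 1389 and 1603 (2.52). The 6 libraries did not overlap for any of these genes. The Ras activator *Rasgrp2* rose by 2.51, the Spred inhibitors *Spred3*, *Spred1* and *Spred2* by 2.10, 1.85 and 0.84, and *Spry2* and *Spry1* by 1.82 and 0.77. *Ccnd1*, encoding cyclin D1, rose by 0.71. *Myc* (0.51) and *Il17rd* (0.31) were called with spike-ins and lost with TMM. The immediate early gene *Egr1* had 107, 102 and 124 counts in ER-dKO and at most 3 counts in any RGd2 2ip5 library, so that it was at least 23.6-fold higher, but it stayed under 1 FPKM and was not called. *Dusp5*, another ERK phosphatase, was the member that fell (-0.83), and its call was lost without RGd2 library 2 (-0.62).

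More of the ERK feedback and target genes were lower than higher in ER-dKO when set against RGd2 CHp2. The CHp2 cells lacked MEK inhibition and, by the paper's reading, had also exited the ESC state. Of the 24 tested, 4 were called higher than in CHp2 and 13 lower, or 4 and 14 with TMM. Over all genes tested, 18.1% were called higher than in CHp2 and 13.6% lower. Against RGd2 CHp2, *Spry4* and *Rasgrp2* were higher in ER-dKO by 1.19 and 1.08, whereas *Dusp6* (-1.0), *Dusp4* (-0.76), *Spry2* (-0.39), *Spred3* (-1.28) and *Myc* (-1.62) were lower. *Fos* family members and *Egr2*, *Egr3* and *Fosl1* were at or under 1 FPKM in both groups of the main comparison. Among 15 genes listed as FGF and EGF ligands and receptors, with the Ras gene *Eras* added, 6 rose and 3 fell. Of the 15, 6 were under the FPKM minimum in both groups. *Eras*, a Ras protein of ESCs, rose from 58.9, 69.7 and 53.5 to 493, 450 and 488 (2.98). The receptor gene *Egfr* rose by 2.65, *Erbb3* by 0.80, *Erbb2* by 0.60 and the ligand gene *Fgf4* by 0.62, and *Fgfr1* (0.39) lost its call with TMM. The receptor gene *Fgfr2* fell from 372, 463 and 506 to 97.2, 125 and 97.2 (-2.07), and the ligand genes *Hbegf* and *Fgf17* fell by 1.20 and 3.26 on the log2 scale.

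RBPJ and Notch target genes were mostly higher in the mutant. Of 20 listed, 17 were tested, 10 rose and 1 fell, with a median log2 fold change of 1.42 beside 0.20 for all genes. The study picked part of this list from libraries of the series, so the count is not independent evidence of the direction. The largest rises were those of *Cidea*, a lipid droplet protein gene, from 21.2, 59.2 and 36 to 1046, 832 and 967 (4.54), and of *Prickle1*, a planar cell polarity gene, from 101, 102 and 81.2 to 1441, 1494 and 1541 (3.99). *Trh*, the thyrotropin-releasing hormone gene, was among the most abundant transcripts, at 1491 FPKM in ER-dKO and 156 FPKM in RGd2 2ip5. Its counts were 57480, 56830 and 54530 against 5359, 4577 and 4843 (3.51). The inhibitors of basic helix-loop-helix factors *Id3*, *Id1* and *Id4* rose by 3.71, 2.88 and 1.31. The Notch feedback gene *Nrarp* rose from 47.1, 63.1 and 62.7 to 404, 416 and 435 (2.82), the semaphorin receptor gene *Nrp2* by 3.04, and the repressor genes *Hey1* and *Hes1* by 1.42 and 0.71. *Gadd45g* fell to near 0, with 2.01, 1.5 and 0.81 counts against 35.4, 40.8 and 48.3 (-4.74). *Hes5*, *Hes7* and *Heyl* had too few counts to be tested.

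For these genes library 12 had 54530 counts of *Trh*, 1984 of *Id3*, 435 of *Nrarp* and 1541 of *Prickle1*, far above every RGd2 2ip5 library. Without it the list again had 10 genes called higher and 1 lower. Without library 12 the comparison called 3123 genes higher and 854 lower across all genes, a call in which this library had no part. It lay beyond the RGd2 2ip5 range on the same side for 3114 of the genes called higher and 837 of those called lower, and inside that range for 9 and 16. Those inside, singled out after their values were seen, include the small GTPase gene *Rab39* (49.4 counts in library 12 against 34.9 and 31.4 in libraries 10 and 11) and the ribosomal protein gene *Rps28*. The 1 gene for which library 12 lay beyond the range on the opposite side was *Rbpj* itself.

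Of 9 Notch receptor and ligand genes, *Jag1* rose from 528, 651 and 600 to 1591, 1523 and 1387 (1.33), *Notch3* and *Notch1* rose by 0.58 and 0.44, and *Jag2* fell (-0.66). *Dll1* was under the FPKM minimum, with 10.7, 9.35 and 7.29 counts in ER-dKO against 84.8, 60.5 and 55.5. Among 12 cofactors of RBPJ, *Spen*, encoding a co-repressor that binds RBPJ, rose from 1204, 1354 and 1421 to 3671, 3387 and 3663 (1.43), *Fhl1* and *Ncor1* rose by 0.54 and 0.49, and *Hdac1* (0.39) lost its call with TMM. The Mastermind co-activator *Maml1* was level, at 810, 800 and 847 against 780, 860 and 792 (0.01, adjusted p = 0.952, edgeR).

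The naive factors were at or above their level in 2i, with a few exceptions. Of 22 genes listed as naive pluripotency genes all were tested, 11 rose and 4 fell, or 9 and 4 with TMM. The list includes *Socs3*, which is a feedback inhibitor rather than a naive transcription factor. The median was 0.20, the same as for all genes tested. *Klf4* rose from 900, 980 and 718 to 3393, 3210 and 3501 (1.96, adjusted p = 4.60e-15, edgeR). *Tbx3*, *Tcl1*, *Lifr* and *Klf5* rose by 1.12, 1.13, 1.09 and 0.96, and *Zfp42*, which encodes REX1, by 0.49. The feedback inhibitor of LIF signalling *Socs3* rose from 11.8, 2.63 and 7.2 to 156, 140 and 147 (4.47), although no LIF was in either medium. *Esrrb* was at 15480, 15050 and 15530 against 14200, 15650 and 13790 (0.08), *Tfcp2l1* at 16860, 17420 and 17780 against 16550, 18430 and 18000 (-0.03), and *Stat3* at 834, 830 and 788 against 825, 809 and 800 (0.01). Their groups overlapped, and *Esrrb* and *Stat3* take a negative sign with TMM (-0.13 and -0.19), without a call. *Klf2* was at 1487, 1617 and 1643 against 1784, 2083 and 1925 (-0.29, not called, but called lower in a model of both groups alone). *Nanog* had 20200, 20240 and 20670 counts against 16240, 18110 and 16160 (0.27), a call that was lost with TMM (0.07) and in 5 of the 6 fits without a library.

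The 4 naive genes that fell were *Dppa3*, *Prdm14*, *Pecam1* and *Nr0b1*. *Dppa3*, a maternal-effect factor that protects methylated DNA, was nearly lost, with 2.68, 4.49 and 2.43 counts in ER-dKO and 172, 183 and 149 in RGd2 2ip5 (-5.56, SE 0.54). *Prdm14*, a repressor of FGF signalling and of de novo methyltransferases, fell to 340, 414 and 368 from 841, 809 and 875 (-1.17). The adhesion gene *Pecam1* and the nuclear receptor gene *Nr0b1* fell by 0.73 and 0.53 on the log2 scale. The RGd2 CHp2 cultures also lacked MEK inhibition but had, by the paper's reading, exited the ESC state. Against them, 18 of the 22 naive genes were called higher in ER-dKO and 2 lower. The higher ones included *Klf4* by 3.18, *Tcl1* by 4.0, *Tfcp2l1* by 2.07, *Prdm14* by 1.95, *Esrrb* by 1.47 and *Nanog* by 1.42. The lower ones were *Socs3* (-0.83) and *Dppa3*, whose difference from CHp2 (-5.58) was close to that from 2ip5.

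Of 11 general pluripotency genes, 8 rose and 1 fell, or 5 and 1 with TMM. *Tdgf1*, the co-receptor of NODAL, rose by 1.39 and *Utf1* by 1.16. *Pou5f1* (23610, 22910 and 22970 against 18690, 19820 and 18620, 0.28), *Sox2* (0.41) and *Dppa4* (0.26) lost their calls with TMM. *Lin28b* fell by 1.61 on the log2 scale, while its paralog *Lin28a* rose by 0.46. Of 10 LIF and STAT3 pathway genes, 4 were called higher and 3 lower, or 2 and 2 without library 12. *Lif* fell by 0.87, *Jak2* by 0.43 and *Pim1* by 0.39, and *Tyk2* (0.34) and *Il6st* (0.34) lost their calls with TMM.

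**Figure D3:**
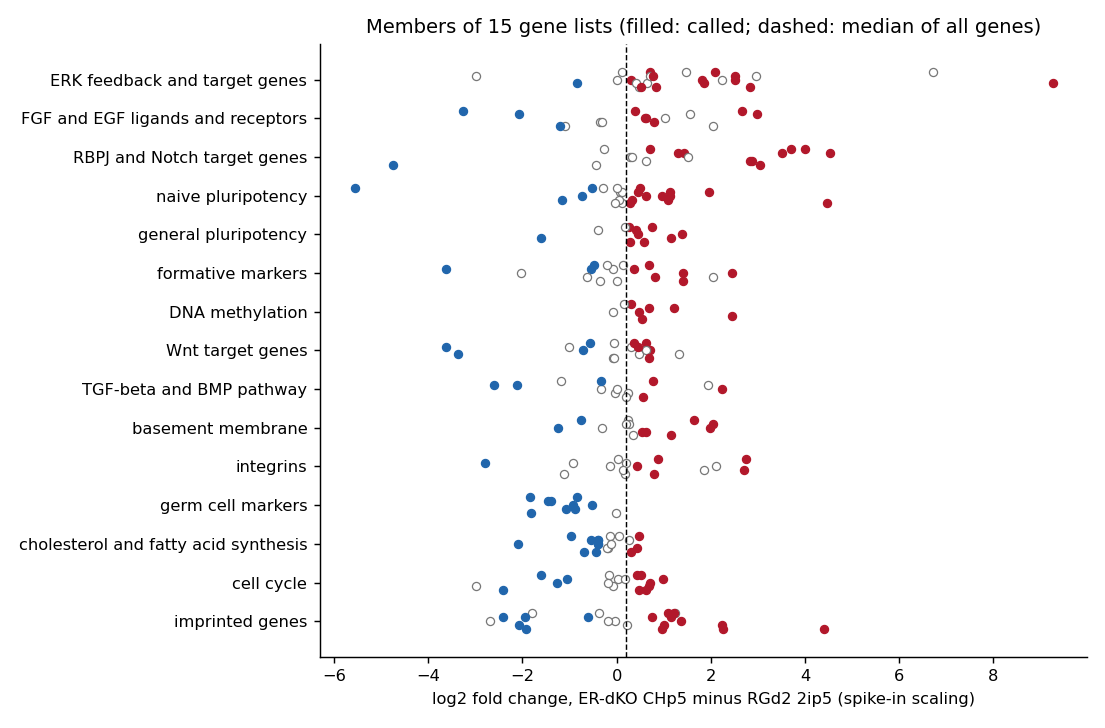
Each point is a gene of the list named on the y axis, placed by its log2 fold change of ER-dKO over RGd2 2ip5 with spike-in scaling, filled where called and open where not. The dashed line is the median of all genes tested, 0.20, and all 9 called germ cell markers lie left of it while 10 of 11 called RBPJ and Notch targets lie right of it.

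Formative genes did not move as a group. Of 17 listed and tested, 6 rose and 3 fell, with a median of 0.01. *Otx2* rose from 328, 377 and 374 to 973, 992 and 913 (1.41), *Tcf15* by 1.42, *Pim2* by 0.81 and *Dnmt3a* by 0.69. The largest rise was of *Dnmt3l*, the cofactor of the de novo DNA methyltransferases, from 2305, 2484 and 1410 to 11110, 11040 and 11650 (2.45). *Dnmt3b* was level, at 2175, 2341 and 2427 against 2420, 2548 and 2321 (-0.07, adjusted p = 0.710, edgeR). *Pou3f1* (5.36, 7.11 and 10.5 against 7.07, 7.89 and 7.2) and *Fgf5* (10.7, 16.1 and 8.10 against 21.2, 6.57 and 20.6) were under 1 FPKM in both groups, and no difference was detectable at these counts. *Zic2* (0.37) lost its call with TMM. *Sox12* and *Tead2* fell by 0.54 and 0.49 on the log2 scale, and *Lef1*, the HMG-box factor of the Wnt pathway, fell from 1388, 1137 and 1094 to 120, 99.1 and 72.1 (-3.62). Beside *Dnmt3l* and *Dnmt3a*, 4 of the 8 DNA methylation genes rose: *Tet3* by 1.22, *Tet1* by 0.53, *Uhrf1* by 0.47 and *Dnmt1* by 0.31, the last of which lost its call with TMM.

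Wnt target genes were divided, although CHIRON was in both media. Of 18 listed, 17 were tested, 5 rose and 4 fell, or 2 and 4 with TMM and 2 and 3 without library 12. *Axin2*, a general target of beta-catenin, had 3090, 2666 and 2784 counts in ER-dKO and 2201, 2344 and 2345 in RGd2 2ip5, a log2 fold change of 0.31 that was not called (adjusted p = 0.0694, edgeR) but was called in a model of both groups alone (adjusted p = 0.000459, edgeR). *T*, encoding Brachyury, was level at 326, 260 and 296 against 354, 292 and 274 (-0.05), and its sign turned without RGd2 library 1 or ER-dKO library 11. *Lef1* and the zinc finger gene *Sp8* (14.8, 20.9 and 12.2 against 191, 175 and 155) fell by 3.62 and 3.36 on the log2 scale. *Notum*, a secreted Wnt inhibitor, fell by 0.56, and *Sp5* by 0.72, the latter call being lost with DESeq2 and in all 6 fits without a library. *Ccnd1* and *Nkx1-2* rose by 0.71 and 0.69, while *Apcdd1*, *Znrf3* and *Tcf7* (0.61, 0.45 and 0.37) lost their calls with TMM. Of the 7 TCF and other Wnt pathway factors only *Apc* was called (0.38), and not with TMM. Against RGd2 CHp2, *T* (-3.77), *Sp5* (-1.86) and *Cdx2* (-1.70) were lower in ER-dKO. Against ETR-tKO in N2B27, which had no CHIRON, *T*, *Sp5* and *Cdx2* were higher in ER-dKO by 4.76, 5.55 and 5.37.

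Of 14 genes of the TGF-beta and BMP pathways, 13 were tested, 3 rose and 3 fell. *Bmp4* rose from 205, 185 and 141 to 867, 692 and 907 (2.23), and the receptor genes *Acvr2b* and *Bmpr1a* rose by 0.77 and 0.57. *Lefty1*, a NODAL antagonist, fell from 4942, 5254 and 4780 to 1061, 1331 and 1072 (-2.11). *Smad6*, an inhibitory Smad of the BMP pathway, fell by 2.6 and *Smad3* by 0.34 on the log2 scale. *Nodal* itself (2515, 2333 and 2345 against 2406, 2657 and 2337, -0.04) overlapped between the groups and was called lower with TMM (-0.25).

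Genes of the extracellular matrix and its receptors changed individually rather than in 1 direction. Of 13 basement membrane genes, 6 rose and 2 fell. The laminin gene *Lama1* rose from 1482, 1433 and 1793 to 5431, 4447 and 4756 (1.63), the perlecan gene *Hspg2* by 1.16, the fibronectin gene *Fn1* by 0.63 and *Lamb2* by 0.55. The collagen IV genes *Col4a1* and *Col4a2* (2.04 and 1.99) did not overlap between the groups but lost their calls with TMM. *Lamb1* and *Nid1* fell by 1.25 and 0.76 on the log2 scale. Among 15 integrin genes, *Itga1* rose from 61.3, 59.2 and 86.3 to 462, 497 and 455 (2.74), *Itga9* by 2.71, *Itga6* by 0.87 and *Itga5* by 0.79, *Itga3* (0.43) lost its call with TMM, and *Itgb3* fell by 2.80 on the log2 scale. Among 17 tested genes of the actin cytoskeleton and focal adhesions, *Zyx* rose from 134, 121 and 128 to 694, 621 and 706 (2.4), *Tmsb4x* by 1.98, *Tagln2* by 1.87 and *Actn4* by 0.77, *Tpm1* (0.35) lost its call with TMM, and *Cald1* and *Cnn2* fell by 0.51 and 0.60. *Cdh3*, the P-cadherin gene, fell from 448, 513 and 619 to 55.6, 72.6 and 51.8 (-3.11), whereas *Cdh1*, the E-cadherin gene, was at 8135, 8394 and 8049 against 6860, 8258 and 7013 (0.15, not called, and -0.05 with TMM). The claudin gene *Cldn6*, *Ncam1* and the tight junction gene *Tjp1* rose by 1.52, 1.20 and 0.37.

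Germ cell genes fell together. Of 10 listed, 9 were called lower and none higher, or 8 and none without library 12, and the median was -1.0 beside 0.20 for all genes tested. *Nanos3*, an RNA-binding protein gene of primordial germ cells, fell from 262, 198 and 295 to 83.1, 65.1 and 63.2 (-1.84), and the piRNA pathway gene *Mael* from 137, 227 and 158 to 52.3, 51.6 and 45.4 (-1.82). *Prdm1*, *Ddx4*, *Ifitm3*, *Stk31*, *Sycp3*, *Dazl* and *Dnd1* fell by between 1.46 and 0.53 on the log2 scale. Of the 9, only *Dnd1* had overlapping groups, at 333, 247 and 275 against 401, 331 and 492. Lack of overlap was not particular to this list, since it held for 4847 of all 4897 called genes. The summed level of the 10 genes was 45.3 to 48.9 FPKM in ER-dKO and 111 to 131 FPKM in RGd2 2ip5. *Rec8*, *Dmrt1* and *Sohlh2*, other germline genes that were singled out after their values were seen, fell by 2.36, 2.28 and 1.29.

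Transcripts of the two-cell embryo were near 0 in the mutant. *Zscan4c* had 132, 110 and 95.6 normalized counts in RGd2 2ip5 and 0, 0.37 and 0 in ER-dKO, at least 60.8-fold lower against a floor of 3 counts per library. *Zscan4d* and *Zscan4f* were at least 63.3-fold and 35.0-fold lower. These paralogs are nearly identical and share reads, so they are not independent of each other. The other 5 two-cell genes tested were under 1 FPKM, and none had more than 3 counts in any ER-dKO library. Lineage markers were low in both groups. Of 8 mesendoderm markers tested only *Eomes* was called (196, 293 and 269 rising to 1200, 1094 and 1227, 2.19), and of 7 neural markers only *Nes* (1.20). *Pax6* stayed under 1 FPKM and went from 151, 158 and 172 counts to 4.02, 8.23 and 9.72. Among trophectoderm markers *Eomes*, *Krt8* (1.14) and *Krt18* (0.75) rose, *Elf3* fell (-0.50), and *Hand1*, *Gata3* and *Krt7* stayed under 0.2 FPKM.

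Of 18 genes of cholesterol and fatty acid synthesis, 3 rose and 9 fell, or 1 and 13 with TMM. *Insig1*, a sterol sensor gene, fell by 0.70 on the log2 scale, and the sterol synthesis genes *Lss*, *Fdft1*, *Hmgcs1* and *Cyp51* by between 0.54 and 0.39. Of 20 lysosome genes 2 rose and 6 fell, or 2 and 12 with TMM. *Ap3b2*, an adaptor protein subunit gene, fell from 3839, 3931 and 4373 to 1099, 930 and 964 (-2.02), *Lamp2* and *Hexa* both fell by 0.58, and the cathepsin gene *Ctsc* rose by 1.28. Of 17 glycolysis genes 4 rose and 1 fell, or 2 and 6 with TMM and 2 and 1 without library 12, with *Pfkp* and *Pdk1* higher by 0.92 and 0.87 and *Aldoc* lower by 1.02. Of 6 metabolic genes that the study itself had singled out, 4 fell, among them *Aldh1b1* (-1.20) and *Cpt1a* (-0.77).

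Of the cell cycle inhibitor genes, *Cdkn2a* fell from 698, 735 and 726 to 221, 239 and 245 (-1.62), *Cdkn1a*, encoding p21, from 1322, 1632 and 1508 to 643, 554 and 670 (-1.26), and *Cdkn2b* by 1.05 on the log2 scale. Among the other cell cycle genes *Ccne2*, *E2f2* and *Mki67* rose by 0.99, 0.70 and 0.62. The list of 17 held 7 called higher and 4 lower, or 5 and 8 with TMM, so its balance depends on the scaling. Of 10 genes listed as p53 targets or cell death genes, 2 rose and 3 fell, or 2 and 5 with TMM. *Pmaip1*, a pro-apoptotic BH3-only gene, rose from 75.4, 116 and 86.3 to 3349, 3051 and 3683 (5.16, adjusted p = 2.01e-23, edgeR). *Perp* rose by 0.96, while *Bcl2l11* (-0.52) and *Trp53inp1* (-0.36) fell with *Cdkn1a*.

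Imprinted genes changed in both directions and partly by clone. Of 22 listed, 10 rose and 5 fell, or 10 and 3 without library 12. *Peg10*, a retrotransposon-derived gene, rose from 1930, 1933 and 2125 to 48790, 31350 and 46750 (4.40), and its neighbour *Sgce* from 127, 166 and 172 to 908, 548 and 824 (2.27). *Meg3*, *Rian* and *Mirg*, non-coding transcripts of the *Dlk1* locus, rose by 0.96, 1.0 and 0.75. *Nnat*, *Plagl1*, *Snrpn*, *Zdbf2* and *Mest* rose by between 2.25 and 1.09. *H19*, *Grb10* and *Igf2r* fell by 1.93, 2.07 and 0.61 on the log2 scale. At the *Kcnq1* locus the clones within each group differed. *Cdkn1c*, an imprinted cell cycle inhibitor gene, had 36.2, 35.5 and 7.29 counts in ER-dKO and 214, 231 and 26.7 in RGd2 2ip5, so that the groups overlapped and the call (-2.42) was lost without RGd2 library 1 (-2.16), RGd2 library 2 (-1.88) or ER-dKO library 12 (-2.07). *Phlda2* had 33.5, 25.8 and 4.05 against 111, 150 and 11.3, and its call (-1.96) was lost with DESeq2 (-2.09) and without the same 3 libraries (-1.80, -1.16 and -1.57). Within these 6 libraries the antisense transcript *Kcnq1ot1* was highest where these genes were lowest in each group. It was at 3745, 3440 and 6531 in ER-dKO and 3186, 2781 and 5758 in RGd2 2ip5. The clonal RGd2 line had the lowest *Cdkn1c* in all 5 RGd2 cultures, but not always the highest *Kcnq1ot1*. In RGd2 2i its *Kcnq1ot1* was 5766 against 7344 and 6026, and at 72 h in N2B27 it was 3011 against 3185 and 2520. The *Rbpj*-KO clones in 2i had *Cdkn1c* at 18.9, 35.8 and 43.7, with *Kcnq1ot1* at 4055, 3882 and 4333.

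Transcripts of the Y chromosome also differed by clone. The summed normalized counts of *Ddx3y*, *Uty* and *Eif2s3y*, singled out after their values were seen, were 3019 and 3495 in the parental RGd2 2ip5 libraries but 14.4 in the clonal RGd2 library 3. In the same clonal line they were between 4.04 and 19.5 in all 5 RGd2 cultures, whereas ER-dKO had 2692, 5782 and 5895. *Uba1y*, which is among the 12 largest rises (381, 809 and 726 against 63.6, 92.0 and 0), includes the 0 of library 3. Median log2 ratios of the other chromosomes differed from the library's own centre by less than 0.1 in all 6 libraries.

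**Figure D4:**
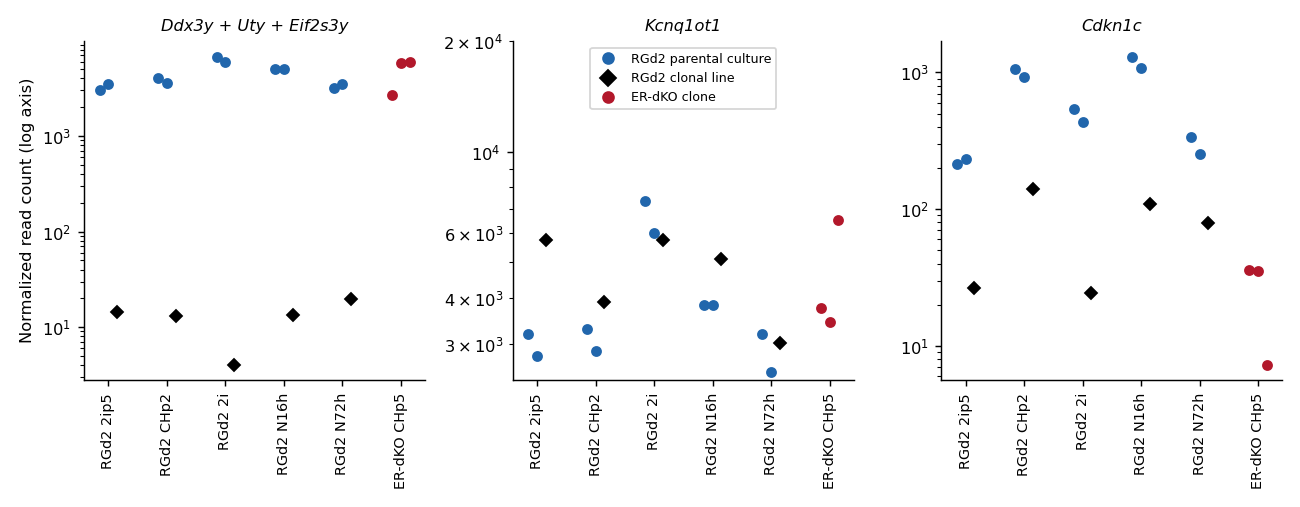
Normalized counts (log axes) of the summed Y-linked genes, *Kcnq1ot1* and *Cdkn1c* in parental RGd2 cultures (blue circles), the clonal RGd2 line (black diamonds) and the ER-dKO clones (red circles). The clonal line has Y-linked sums of at most 19.5 in 5 cultures, and *Cdkn1c* is lowest in library 12 at 7.29.

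Of the 12 largest rises among genes of at least 5 FPKM, *Spry4*, *Etv4*, *Pmaip1*, *Cidea*, *Peg10*, *Prickle1*, *Uba1y*, *Id3* and *Trh* are given above. The others were *Amdhd1*, a histidine catabolism gene, from 9.43, 11.8 and 3.08 to 330, 322 and 383 (5.50), *Dpysl3*, a cytoskeletal regulator gene, from 116, 108 and 84.3 to 2588, 3173 and 3058 (4.87), and *Bst2*, encoding tetherin, from 28.3, 19.7 and 28.8 to 537, 439 and 614 (4.37). The 5 smallest p-values among genes that rose added *Nt5e*, the ectonucleotidase gene (4.86), and *Tor3a* (3.06).

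Of the 12 largest falls, *Dppa3*, *Lef1* and *Cdh3* are given above. *Slc38a4*, an amino acid transporter gene, fell from 2825, 3504 and 2742 to 87.1, 103 and 121 (-4.87). The myelin basic protein gene *Mbp* fell from 992, 912 and 1037 to 35.5, 37.8 and 30.0 (-4.81), and *Rnf213*, a ubiquitin ligase gene, from 2038, 2144 and 2446 to 131, 118 and 106 (-4.22). No library of either group came near the other group for these genes. *Aurkc*, the germline Aurora kinase gene, fell from 252, 238 and 320 to 13.4, 15.7 and 25.1 (-3.95). *Dpysl2*, the paralog of *Dpysl3*, fell from 613, 632 and 527 to 50.9, 49.8 and 38.9 (-3.64), so that the paralogs moved in opposite directions. *Obsl1*, *Ms4a10*, *Ccdc136* and *Ina* fell by 3.40, 3.20, 2.94 and 2.85 on the log2 scale. The 5 smallest p-values among genes that fell added *Bahcc1*, from 1025, 1125 and 1051 to 26.8, 63.2 and 39.7 (-4.55).

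The comparison of ER-dKO with RGd2 CHp2 asks how the mutant differs from parental cells when neither has MEK inhibitor. Passage number also differs, and the paper reads CHp2 as having exited the ESC state. On the first principal component of the rlog values, CHp2 lay at 47.4 to 48.1 and ER-dKO at -18.6 to -17.3. RGd2 2ip5 lay at -12.0 to -10.1 and RGd2 at 72 h in N2B27 at 70.0 to 71.9. Genotype and this difference of state cannot be told apart here. The comparison called 3422 genes higher (18.1%) and 2578 lower (13.6%) in ER-dKO, and the median of all genes was 0.02. Set beside the main comparison, whose ER-dKO libraries it shares, *Lef1* (-5.11 and -3.62), *Dpysl2* (-4.53 and -3.64), *Cdh3* (-3.09 and -3.11) and *Obsl1* (-3.33 and -3.40) were low in ER-dKO against both RGd2 cultures. *Cidea* (6.48 and 4.54), *Dpysl3* (3.52 and 4.87) and *Trh* (2.09 and 3.51) were high against both. *Peg10* (0.10), *Bst2* (-0.82) and *Nt5e* (-0.88), which were far above their level in 2i, were not above CHp2. Of the 17 formative genes, 13 were called lower in ER-dKO than in CHp2 and 2 higher. Among the lower ones were *Fgf5* by 3.16, *Pou3f1* by 5.85, *Dnmt3b* by 2.46 and *Tcf15* by 1.63, while *Otx2* was not called (0.00).

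**Figure D5:**
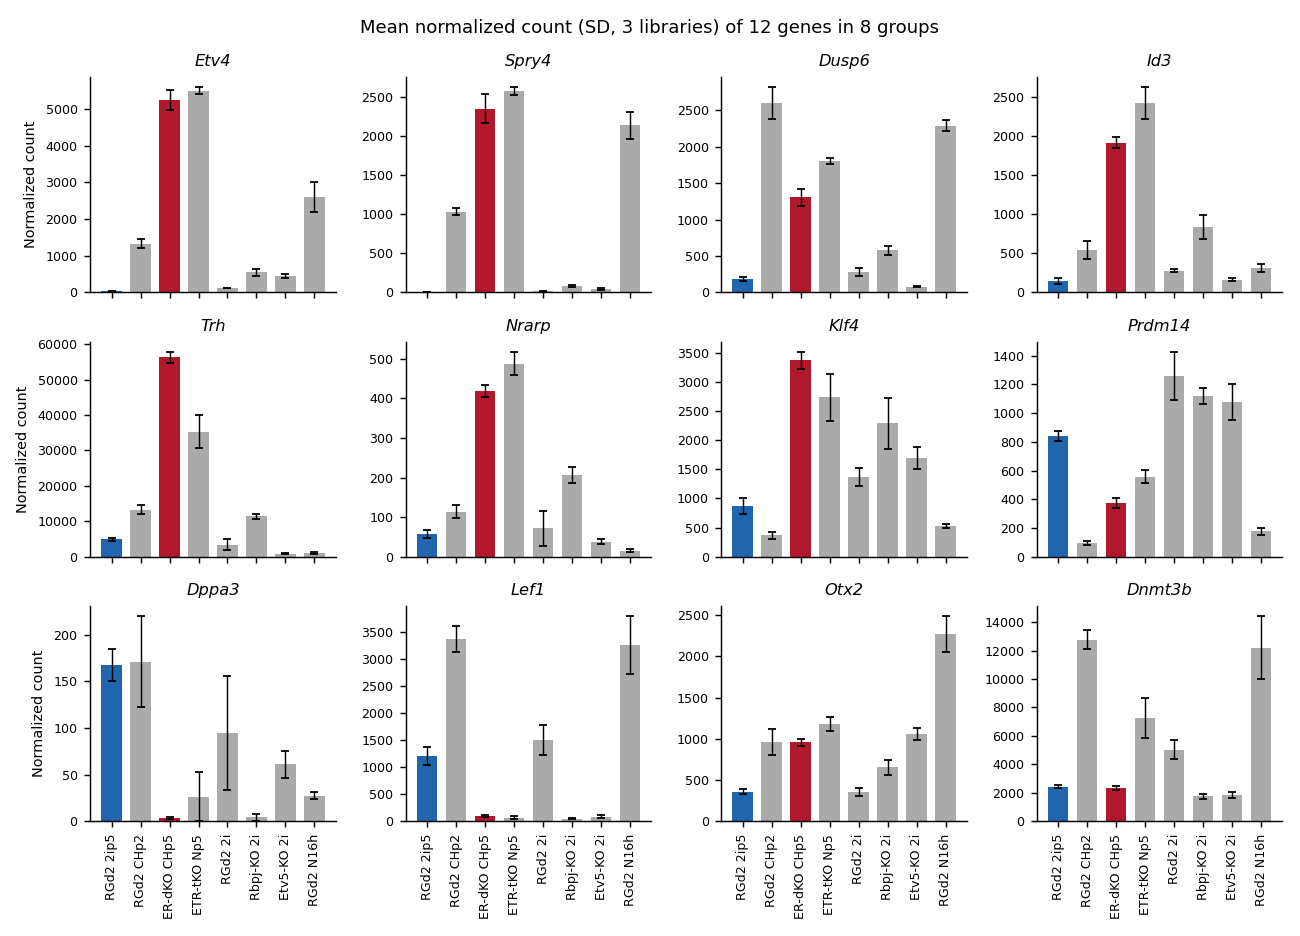
Bars are mean normalized counts with SD (3 libraries) of 12 genes in 8 groups, with RGd2 2ip5 in blue, ER-dKO in red and other groups in grey. *Etv4* and *Spry4* are near 0 in RGd2 2ip5 and high in ER-dKO and ETR-tKO, *Trh* is higher in these mutants than in RGd2 2ip5, while *Dppa3* and *Lef1* are low in both compound mutants.

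Comparisons that share no library with the main one were available from *Rbpj*-KO, *Etv5*-KO and N16h RGd2, each against RGd2 in 2i. They share their RGd2 2i controls with each other. Their counts of called genes are given on the spike-in scale only. The spike-ins took 0.99%, 1.19% and 1.39% of the counts in RGd2 2i libraries 31, 32 and 33. Library 33 had only 5986857 counts on genes. How far the balance of higher and lower genes in these comparisons depends on the scaling was not tested. *Rbpj*-KO had 605 genes higher (3.2%) and 707 lower (3.74%), *Etv5*-KO 710 higher (3.76%) and 3227 lower (17.1%), and N16h 1014 higher (5.37%) and 4388 lower (23.2%). Of the genes higher in ER-dKO, 10.6% were higher in *Rbpj*-KO, which is 68.8% of the *Rbpj*-KO list. For *Etv5*-KO these shares were 8.29% and 45.8%, and for N16h 10.8% and 41.9%. Of the genes lower in ER-dKO, 32.3% were lower in *Rbpj*-KO (44.6% of its list), 43.7% in *Etv5*-KO (13.2% of its list) and 47.3% at N16h (10.5% of its list). Genes that went the opposite way numbered 71 and 24 for *Rbpj*-KO, 914 and 87 for *Etv5*-KO, and 1249 and 103 for N16h, where the first number is of genes higher and the second of genes lower in ER-dKO.

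The RBPJ and Notch targets had these values in the single mutants. In *Rbpj*-KO in 2i, where MEK was inhibited, *Prickle1* (2.96), *Cidea* (2.72), *Nrp2* (2.4), *Hey1* (2.11), *Nrarp* (1.80), *Trh* (1.73), *Id3* (1.57), *Hes1* (0.96) and *Id4* (0.79) were called higher. In *Etv5*-KO in 2i, *Trh* (-2.06), *Id4* (-0.88), *Id3* (-0.80), *Nrarp* (-0.62) and *Hes1* (-0.46) were called lower, the last 2 not with TMM, whereas *Cidea* (1.68) and *Prickle1* (1.18) were higher. *Etv4* was called higher in both single mutants, by 2.22 and 1.97, and at N16h by 4.48. *Spry4* rose at N16h (7.81) and was called in neither single mutant. *Lef1* was lower in *Rbpj*-KO (-5.17) and in *Etv5*-KO (-4.16) and higher at N16h (1.10). *Dppa3* was lower in *Rbpj*-KO (-4.47) and at N16h (-1.94), and its value in *Etv5*-KO was -0.77, not called. Other large falls of ER-dKO had no counterpart of that size in these libraries: *Dpysl2* was at -0.03 in *Rbpj*-KO and -1.25 in *Etv5*-KO, *Rnf213* at -0.29 and 0.59, and *Slc38a4* at 0.50 and -1.77.

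Against ETR-tKO cells in N2B27, which lack *Tcf3* in addition and had no inhibitor, *Etv4*, *Spry4*, *Nrp2*, *Nrarp* and *Klf4* did not pass the test (-0.07, -0.13, 0.07, -0.22 and 0.30, *Klf4* being called higher with TMM), and *Nanog*, *Esrrb* and *Tfcp2l1* differed by less than 0.1. *Trh*, *Id4* and *Bmp4* were higher in ER-dKO by 0.67, 1.70 and 1.77, and *Dppa3*, *Fgfr2* and *Prickle1* were lower by 2.99, 2.93 and 1.5 on the log2 scale. The ETR-tKO clones had 26.4 ± 26.3 (SD, n = 3) counts of *Dppa3*.

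Promoters were searched for binding motifs in the 250 bases before each start in RefSeq's GRCm38.p6 annotation, on both strands, as a description. Of the genes called, 2922 of 3922 higher and 717 of 975 lower had a promoter in the table. The RBPJ core motif TGGGAA was in 21.6% of all promoters and 20.4% of those of tested genes, in 20.9% of those of genes called higher and in 18.4% of those of genes called lower. For the longer form GTGGGAA, which contains the core, the shares were 5.42%, 5.45%, 6.06% and 4.35%. The ETS motif CCGGAAGT was in 2.88% of all promoters and 5.18% of those of tested genes, in 7.49% of those of genes called higher and in 2.38% of those of genes called lower. The E-box CACGTG was in 7.68% and 11.3% of the promoters of genes called higher and lower, beside 8.02% of those of tested genes. For genes called higher with both scalings the shares were 21.6% (RBPJ core), 6.06% (longer form), 6.35% (ETS) and 7.02% (E-box). The ETS share among genes called higher thus depends in part on the scaling. The tested genes also include those under 1 FPKM, which could not be called, so they are not a like background for called genes. Motif shares among all genes of at least 1 FPKM were not analysed here. Of the RBPJ and Notch targets 14 genes with 15 promoters were in the table, and 5 promoters (33.3%) held the core motif. These were the promoters of *Hes5* and *Hes7*, which were not tested, of *Hey2* and *Lfng*, which were not called, and of *Id4*, which rose. Promoters of *Hes1* and *Id1* were not analysed here.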

How the data were processed

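Total RNA was depleted of ribosomal RNA with Ribo-Zero, ERCC spike-ins were added, and strand-specific paired-end libraries were made. After trimming (Trim Galore), the authors mapped reads by TopHat2 to mouse build mm10 extended by the spike-in sequences. They deposited raw featureCounts counts of unique, primary, strand-matched fragments for each Gencode gene and spike-in. Tool versions were not given in the sources used here.

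Groups came from the sample labels. Members and gene lists were chosen with earlier results of these data known. The 52 of 92 spike-ins above 0 in every library gave the size factors, by median of ratios. The 18892 of 51826 genes that passed filterByExpr were tested in a single edgeR 4.0.16 model of all 32 libraries (R 4.3.3, glmQLFit and glmQLFTest, two-sided), and p-values were adjusted by Benjamini-Hochberg across these genes. Genes were called below an adjusted p of 0.05 if the FPKM, averaged per group, reached 1 in at least 1 of the groups. FPKM was computed here from counts and gene lengths. The standard error is the log2 fold change divided by the square root of F. A gene with at most 3 counts in every library of a group was at the floor, and its fold is a bound.

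Named genes are list members, the 12 largest changes in each direction among called genes of at least 5 FPKM whose groups do not overlap (leaving out Gm, Rik and mt symbols), and the 5 smallest p-values in each direction. Genes outside this rule are said to have been singled out. RGd2 libraries 1 and 2 are labelled as the same parental population. The same holds for libraries 31 and 32 of RGd2 2i, 4 and 5 of CHp2 and 22 and 23 of N16h. The p-values of these comparisons therefore measure partly the spread within that population, which may be technical. No pair of libraries agreed within sampling noise (chi-square per gene of 3.25 or more). Alternatives were TMM and median-of-ratios scaling, total spike-in counts, DESeq2 1.42.0, a model of both groups only, other filters and leaving out each library. The test was checked on simulated data. Of 405 list genes 403 were in the table.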

Additional observations from a re-analysis of the deposited data

How the results depend on the processing

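The counts of called genes kept within 1.5 times under DESeq2, total spike-in size factors, a model of both groups only, no low-count filter, and without each library, where ER-dKO against RGd2 2ip5 gave 2861 to 3655 higher and 777 to 912 lower, and ER-dKO against CHp2 gave 2775 to 3483 higher and 2171 to 2556 lower. Gene-based scaling changed the balance of the first comparison: TMM gave 2526 higher and 2368 lower, and median-of-ratios on genes 2503 and 2404. A fold change of at least 2 in addition left 713 and 392, and 1003 and 1231 against CHp2. Without an FPKM minimum 1686 genes were lower, and 4374 against CHp2. Signs turned only for named genes that were not called: *Cdh1* (-0.0535 with TMM, -0.0568 with median-of-ratios), *Esrrb* (-0.1295, -0.1328), *Kcnq1ot1* (-9e-04, -0.0024), *Pou3f1* (-0.1858, -0.1877) and *Stat3* (-0.1933, -0.1962). Leaving out a library gave ranges across 0 for *Fgf5* (-0.7526 to 0.0186), *Kcnq1ot1* (-0.1293 to 0.6138), *Nodal* (-0.0822 to 0.0133), *Pou3f1* (-0.2052 to 0.1605), *Stat3* (-0.0041 to 0.0334), *T* (-0.1338 to 0.0485) and *Tfcp2l1* (-0.0741 to 0.0033). The cause was not tested. No paired analysis of ER-dKO against RGd2 was possible because the labels give these groups no clonal line in common. The RGd2 lines do recur across the RGd2 cultures. The comparison of N16h with RGd2 2i was nevertheless fitted by group only, without the line. Counting depth limited genes under 1 FPKM, such as *Fgf5* and *Pou3f1*.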

Other observations

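Genes outside the lists were read for further patterns and are given as values only. They were singled out after their values were seen. *Sfmbt2*, which encodes a polycomb-related protein and is imprinted in mouse, rose from 2748, 2863 and 3380 normalized counts in RGd2 2ip5 to 16600, 16080 and 16730 in ER-dKO (log2 fold change 2.46), and was also higher than in RGd2 CHp2 (2.41). *Rhox5*, an X-linked homeobox gene, rose from 445, 508 and 636 to 2737, 1949 and 2402 (2.14), and was higher in *Rbpj*-KO in 2i as well (2.21). The Hedgehog pathway genes *Gli2* and *Ptch1* fell from 1626, 2156 and 1521 to 545, 548 and 548 (-1.69) and from 1518, 1846 and 1674 to 556, 693 and 576 (-1.46). Both were called lower in *Rbpj*-KO (-0.71 and -0.47) and *Etv5*-KO in 2i (-0.61 and -0.45). The Y-linked gene *Zfy1* had 28.8, 139 and 110 counts in ER-dKO and 4.71, 1.31 and 0 in RGd2 2ip5, where the parental libraries that carry Y transcripts were also near 0.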
